A study of Mus musculus with 4 samples.

Results

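The genes described here encode the matrix metalloproteinases (MMP), the ADAMTS proteases and their tissue inhibitors (TIMP), here read from jaw tissue (mandible with maxilla) and from brain of WT and *FoxO6*-/- mice. Members were all genes on the array with a symbol made of Mmp, Adamts or Timp followed by a number, leaving out 1 gene that is not reported here. The rule found 36 genes of 18193 with a named probe set, of which 17 are MMP, 15 ADAMTS and 4 TIMP genes. The rule used names only and no measured value. For 27 of the 36 genes the mean signal over the 4 arrays reached the floor of 101, the median signal of all probe sets, and 9 stayed below it.

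RNA was hybridized to Affymetrix mouse arrays, with 1 array each for *FoxO6*-/- mandible and maxilla, WT mandible and maxilla, *FoxO6*-/- brain and WT brain. All 4 are labelled postnatal day 0, whereas the methods speak of embryos for the mandible and maxilla. FoxO6 is a forkhead transcription factor, and in the mutants both exons of the gene were replaced by a LacZ and a neomycin cassette, on a C57BL/6 background. RNA of 4 animals was combined for mandible and maxilla, and per the methods the mutants include heterozygotes beside nulls. Heads were cut by hand with scissors into brain, mandible and maxilla. No probe set names Foxo6, so the genotype labels were not checked. The values are MAS5 signals, which summarize the brightness of the probes of 1 transcript in arbitrary units, and signals of different genes cannot be set against each other.

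MMPs are zinc proteases that cut collagens and other matrix proteins, and most are made as inactive proenzymes. They are divided into gelatinases, collagenases, membrane-type enzymes, stromelysins and others, while ADAMTS proteases act mainly on proteoglycans, procollagens and microfibrils. TIMPs block the active site of these enzymes, and the balance of both is known from the remodeling of bone and cartilage, the invasion of osteoclasts, and the perineuronal matrix of the brain.

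The arrays carry the tissues of their labels, with exceptions that bear on every comparison below. Neuron markers summed to signals of 33765 and 42069 on the brain arrays against 2359 and 3632 on the mandible and maxilla arrays, and ameloblast markers to 92.1 and 199 against 6929 and 10325. Bone and muscle genes were nevertheless bright on the arrays labelled brain. Osteoblast markers summed to 26367 and 27551 there against 42204 and 46948 in mandible and maxilla, and skeletal muscle markers to 45279 and 52739.5 against 100376 and 106882. Cartilage markers divided the arrays in another way, with sums of 44531 on the WT mandible and maxilla array and 49413 on the *FoxO6*-/- brain array against 26810 and 26718 on the other two. Olfactory and respiratory epithelium markers gave sums of 8153 and 8844 on those arrays against 535 and 1444.5. Most of the larger sums came from Bpifb9b, a secreted protein of the nasal lining. It read 6546 and 6462 there and 4.6 and 1.7 on the others. Omp, Gng13 and Cnga2 were also higher on those arrays. Gnal and Foxj1 differed by tissue as well, with Gnal higher on both brain arrays and Foxj1 on both mandible and maxilla arrays. Within each tissue both were again higher on the WT mandible and maxilla array and the *FoxO6*-/- brain array. Gnal read 393 against 151 in mandible and maxilla and 1691 against 1259.5 in brain, and Foxj1 226 against 170 and 128 against 105. Whether tissue was cut differently or exchanged in part between these arrays was not tested, and every genotype ratio below shares that doubt. The *FoxO6*-/- mandible and maxilla array also had an Actb 3' to 5' signal ratio of 3.37, against 2.21 to 2.23 on the others. RNA of bone, cartilage or muscle in the brain samples and expression in brain itself cannot be told apart on these arrays, nor can fewer cells of a type and less RNA per cell.

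Most members were brighter in mandible and maxilla than in brain, by small amounts. Both mandible and maxilla arrays lay above both brain arrays for 20 of the 27 measured members, whereas this held for 36.4% of all 12569 genes measured. Both brain arrays lay above both others for 4 members, Adamts3, Mmp17, Mmp24 and Timp4, against 29.1% of all genes, and the arrays overlapped for Adamts4, Adamts16 and Adamts18. Mmp24 reached the floor only through brain, and Adamts8 and Adamts16 only through mandible and maxilla, so the filter itself favoured their directions. In a limma fit with tissue and genotype as terms, the log2 difference of mandible and maxilla from brain had a median of 0.34 over the 27 members and of 0.05 over all genes. Mmp9 was the 1 member called higher in mandible and maxilla at an adjusted p under 0.05, in a background of 6.48% of all genes. Mmp24 and Timp4 were called higher in brain, in a background of 8.73%. At an unadjusted p under 0.05 there were 12 of 27 members and 4241 of 12569 genes. The fit has 1 residual degree of freedom and takes the genotypes as the 2 arrays of each tissue. Each gene's variance is drawn toward a value shared by all genes, which counts for 2.40 prior degrees of freedom. An SE given below is therefore not the gene's own spread between arrays, and the p-values rest on these 4 arrays only. Centring each array on its own median moved the log2 difference of all genes from 0.05 to -0.07. With that centring 13 members had both mandible and maxilla arrays above both brain arrays, against 25.3% of all genes, and limma called 0 members higher in mandible and maxilla and 4 higher in brain, against 1 and 2 without it.

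**Figure D1:**
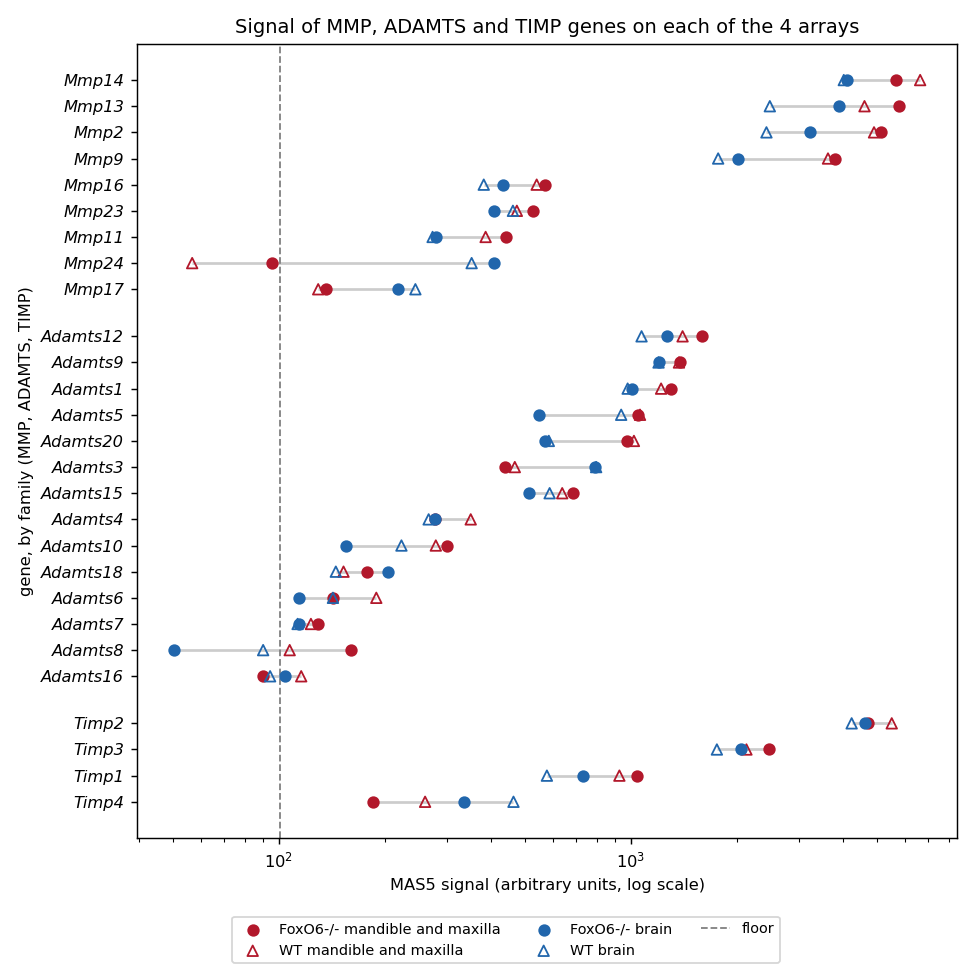
MAS5 signal (arbitrary units, log axis) of each of the 27 measured genes, in 3 blocks by family, with 1 point per array. Red marks mandible and maxilla and blue brain, filled circles *FoxO6*-/- and open triangles WT, and the dashed line is the floor of 101. Red points lie to the right of blue ones for 20 genes and to the left for Mmp24, Mmp17, Adamts3 and Timp4. Positions of different genes cannot be compared.

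The gelatinases Mmp2 and Mmp9, which cut denatured collagen and basement membrane collagen, were both brighter in mandible and maxilla. Signals are given here and below for the *FoxO6*-/- array first and the WT array second. Mmp9, a gelatinase known from osteoclasts and neutrophils, had signals of 3800.4 and 3630.0 in mandible and maxilla and 2016 and 1769.6 in brain. The groups did not overlap, and the tissues differed by 1.04 on the log2 scale in WT and by 0.91 in *FoxO6*-/-. The limma estimate was 0.98 ± 0.15 (SE, n = 2 arrays per tissue, adjusted p = 0.0388). A second probe set of Mmp9 read 1594 and 1142 against 713 and 509, a log2 difference of 1.17 in WT and 1.16 in *FoxO6*-/-. Mmp2, an enzyme of connective tissue cells, had signals of 5133 and 4905 in mandible and maxilla and 3232 and 2427 in brain. All arrays of one tissue were above those of the other, by 1.02 in WT and 0.67 in *FoxO6*-/-, and the limma estimate of 0.84 ± 0.17 missed the limit with an adjusted p of 0.0662. The call of Mmp9 was lost when any of 3 arrays was left out, with adjusted p-values of 0.0636 without *FoxO6*-/- mandible and maxilla, 0.0518 without *FoxO6*-/- brain and 0.0747 without WT brain. Those fits have tissue as their only term, and with all 4 arrays that form gave 0.0156.

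Some osteoclast markers were also higher in mandible and maxilla. Of 6 measured markers, limma called 3 higher there and 0 higher in brain, with a median log2 difference of 0.90. The summed signal of the 8 listed markers was 15822 and 11278 in mandible and maxilla and 7681 and 5771 in brain. Acp5, the tartrate-resistant phosphatase of osteoclasts, differed by 1.20 ± 0.15 (SE, adjusted p = 0.0260), and Calcr, the calcitonin receptor gene, by -0.55 ± 0.27 (SE, adjusted p = 0.263). Neutrophil markers gave sums of 2723 and 3498 against 1952 and 2388, with a median log2 difference of 0.43 and 1 of 5 called. No marker of either list was at 0, and the part of these cells in the level of Mmp9 was not tested.

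Mmp13 is the interstitial collagenase of rodent bone, made by hypertrophic chondrocytes and osteoblasts. Its signals were 5781 and 4609 in mandible and maxilla and 3896 and 2481 in brain. The tissues did not overlap, yet the log2 difference was 0.89 in WT and 0.57 in *FoxO6*-/-, and limma gave 0.73 ± 0.17 (SE, adjusted p = 0.0818). Osteoblast markers had a median log2 difference of 0.84 and 2 of 7 were called higher in mandible and maxilla, among them Dmp1 with 1.06 ± 0.15 (SE, adjusted p = 0.0318). The part of osteoblasts in Mmp13 was not tested. Of 3 measured hypertrophic chondrocyte markers 1 was called higher in mandible and maxilla, with a median of 0.21. The called gene, Alpl, is also 1 of the 2 osteoblast markers called. Col10a1, the collagen of the hypertrophic zone, read 89.4 and 88.7 in mandible and maxilla and 200.5 and 102.8 in brain. It was not called.

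Mmp13 is also the 1 gene above the floor among clustered members. Mouse chromosome 9 holds 8 of the members in 1 cluster, namely Mmp13, Mmp12, Mmp1b, Mmp3, Mmp1a, Mmp10, Mmp8 and Mmp7, and the other seven were below the floor on average. In the RefSeq promoter windows of assembly GRCm38.p6, which run from 250 bases before to 50 after a gene's start, 22 of the 36 members have a window. The letters TGAGTCA, the AP-1 motif, stood on either strand in 5.20% of all 32851 windows and in those of 7 member genes. All 7 lie in this cluster and Mmp8 is the eighth gene without the letters. The 27 bases around each match are shown because Mmp13, which was bright, and 6 genes below the floor have them alike. Capitals mark the motif, written along the gene's own strand.
Mmp13 (chr9:7272469-7272495): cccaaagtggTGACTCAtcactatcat
Mmp12 (chr9:7347320-7347346): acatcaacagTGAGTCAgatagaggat
Mmp1b (chr9:7388103-7388129): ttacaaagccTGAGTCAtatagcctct
Mmp3 (chr9:7445766-7445792): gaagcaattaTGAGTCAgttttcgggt
Mmp1a (chr9:7464058-7464084): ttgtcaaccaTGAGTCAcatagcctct
Mmp10 (chr9:7502269-7502295): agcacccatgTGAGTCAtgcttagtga
Mmp7 (chr9:7692017-7692043): agtgtgcaaaTGAGTCAcctatttcca

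Mmp1b is read from the minus strand and the other genes from the plus strand, and Mmp13 alone has the letters in the opposite direction, as TGACTCA. The Mmp13 window, chr9:7272264-7272563 on the plus strand, also holds the RUNX letters TGTGGT and the forkhead letters GTAAACA, both in the opposite direction. It is printed whole with the 3 matches in capitals, RUNX from position -118, forkhead from -81 and AP-1 from -35 relative to the start, and they do not overlap.
Mmp13 promoter: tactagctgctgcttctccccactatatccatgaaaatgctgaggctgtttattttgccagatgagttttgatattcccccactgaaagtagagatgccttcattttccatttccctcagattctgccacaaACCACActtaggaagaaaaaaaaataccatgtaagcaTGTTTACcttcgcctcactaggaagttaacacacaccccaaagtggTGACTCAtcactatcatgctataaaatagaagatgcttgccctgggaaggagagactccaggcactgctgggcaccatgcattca
RUNX letters occurred in 16.8% of all windows and in those of 5 members, Mmp13, Mmp14, Mmp1b, Mmp23 and Mmp7. Forkhead letters occurred in 3.65% of all windows and in those of Mmp10 and Mmp13. Such a match is a description of the letters and not a site of binding.

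Membrane-type MMPs, which are held at the cell surface, divided into a pair brighter in mandible and maxilla and a pair brighter in brain. Mmp24, the membrane-type enzyme known from neurons, differed more between the tissues than any of the other 26 measured members. Its signals were 95.5 and 56.7 in mandible and maxilla, both under the floor, and 408 and 353 in brain. Set against the floor, brain was at least 3.50-fold higher in WT and at least 4.05-fold higher in *FoxO6*-/-. With low signals raised to the floor the limma estimate was -1.91 (log2). That step sets both mandible and maxilla signals to the same value, so its p-value lacks their spread and is not given. The fit on the signals as deposited, -2.37 ± 0.21 (SE, adjusted p = 0.0153), rests on values under the floor and gives no exact size. With tissue as the only term and each of the 4 arrays left out in turn, the log2 estimate ran from -2.74 to -1.99. Mmp24 entered the fit only through its brain signals, so the filter favoured its call. Its 2 other probe sets were below the floor and do not check it. Neuron markers ran the same way, with 5 of 6 called higher in brain and a median log2 difference of -4.02, and their part in Mmp24 was not tested. The promoter window of Mmp24, chr2:155775092-155775391 on the plus strand, is shown because this member differed most between the tissues. It is 80.0% G and C, against 43.7% for Mmp13 and a median of 52.7% over all windows, and holds none of the 3 motifs.
Mmp24 promoter: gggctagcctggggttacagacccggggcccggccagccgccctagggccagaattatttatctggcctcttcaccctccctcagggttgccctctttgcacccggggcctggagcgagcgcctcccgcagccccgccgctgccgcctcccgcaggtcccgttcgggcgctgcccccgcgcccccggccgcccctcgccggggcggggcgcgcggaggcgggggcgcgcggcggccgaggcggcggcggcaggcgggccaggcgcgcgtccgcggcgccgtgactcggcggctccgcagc

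Mmp17, which is tied to the membrane by a lipid anchor, was the other membrane-type gene on the side of brain. It read 136 and 129 in mandible and maxilla and 218 and 244 in brain. The groups were apart, and limma gave -0.80 ± 0.16 (SE, log2, adjusted p = 0.0632), just outside the limit. Mmp14, a collagenase that also activates the Mmp2 proenzyme, had signals of 5663 and 6633 against 4117 and 4025. The log2 difference was 0.72 in WT and 0.46 in *FoxO6*-/-, and limma gave 0.59 ± 0.16 (SE, adjusted p = 0.107). Mmp16, a related membrane enzyme, read 569 and 539.9 against 433.5 and 382, which is 0.45 ± 0.15 in limma (SE, adjusted p = 0.147). The 2 other probe sets of Mmp16 above the floor had mean log2 differences of 0.05 and -0.09 with overlapping tissues, and the mean of its probe sets gave 0.17. Neither Mmp14 nor Mmp16 was called.

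Of the other MMPs, Mmp11 and Mmp23 were measured. Mmp11, the stromelysin that furin activates inside the cell, read 442 and 387 in mandible and maxilla against 279 and 273 in brain, with a limma log2 difference of 0.58 ± 0.15 (SE, adjusted p = 0.0992). Mmp23, an unusual member with an anchor at its amino end, read 528 and 474 against 408 and 462, and in WT the tissues differed by only 0.04. The 8 remaining MMP genes, Mmp1a, Mmp1b, Mmp3, Mmp7, Mmp8, Mmp10, Mmp12 and Mmp19, and Adamts19 had signals between 0.84 and 88.5 on single arrays. These include the stromelysins Mmp3 and Mmp10, the matrilysin Mmp7, the neutrophil collagenase Mmp8 and the macrophage elastase Mmp12, and no ratio is given for them.

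**Figure D2:**
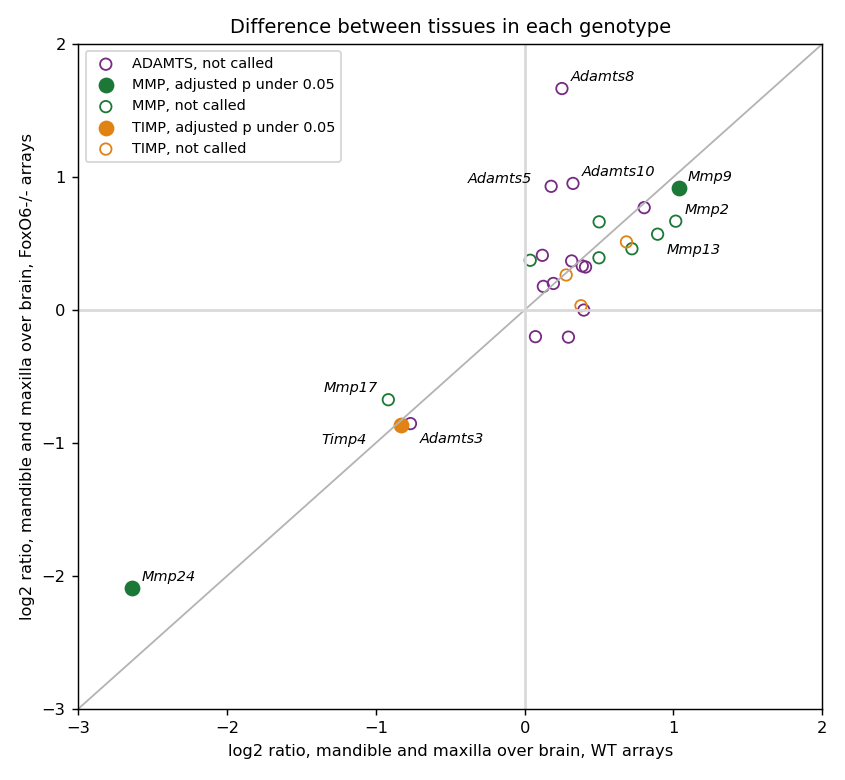
Log2 ratio of mandible and maxilla over brain on the WT arrays (x axis) and on the *FoxO6*-/- arrays (y axis), with 1 point per measured gene, coloured by family. Filled points passed an adjusted p of 0.05 in limma, and the diagonal marks equal ratios. Mmp24, with mandible and maxilla signals under the floor, lies at -2.64 and -2.09, Mmp9 at 1.04 and 0.91, and Adamts8, with brain signals under the floor, stands off the diagonal at 0.25 and 1.66.

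All 7 ADAMTS genes that cleave the proteoglycans aggrecan or versican had limma estimates above 0, and 0 of the 7 were called. Estimates above 0 were found for 22 of the 27 measured members and for 54.7% of all genes. The log2 differences of the 7 genes ranged from 0.20 to 0.96 with a median of 0.34. Adamts8 had the highest, which rests on brain signals under the floor. Adamts20, known from pigment cells and palate closure, had signals of 973 and 1019.9 in mandible and maxilla and 571 and 584.5 in brain. The genotypes were close to each other in both tissues, and limma gave 0.79 ± 0.15 (SE, adjusted p = 0.0552). Adamts5, the main aggrecanase of mouse cartilage, read 1047 and 1061 against 549.8 and 938. Here the low value came from the *FoxO6*-/- brain array alone, and the other 2 probe sets of Adamts5 above the floor had mean log2 differences of -0.04 and -0.10.

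Adamts8 had signals of 159.9 and 107 in mandible and maxilla and 50.4 and 90.2 in brain, so that the brain mean was under the floor. It had the widest error of the measured members, with a limma log2 difference of 0.96 ± 0.41 (SE, adjusted p = 0.215), and 0.38 with low signals raised to the floor. Adamts1, a protease of versican, read 1297 and 1218 against 1005 and 979, a log2 difference of 0.34 ± 0.15 (SE, adjusted p = 0.215). Adamts9, another versicanase, read 1376 and 1369 against 1199 and 1198, with the genotypes almost equal in each tissue. A second probe set of Adamts9 differed by 0.90 in WT and 1.57 in *FoxO6*-/-, far more than the first with 0.19 and 0.20. Adamts15 read 683 and 638 against 514 and 588, and the tissues were apart by a small margin. Adamts4, the inducible aggrecanase, read 277 and 351 against 278 and 266, which overlap. Of the substrates Vcan, the versican gene, differed by 0.44 ± 0.15 (SE, limma adjusted p = 0.148) and Acan, the aggrecan gene, by -0.13 ± 0.55, with Acan bright on the WT mandible and maxilla and *FoxO6*-/- brain arrays like the other cartilage genes.

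Adamts3, which removes the amino propeptide of procollagens, was the 1 ADAMTS gene with both brain arrays above both others. Its signals were 438 and 468 in mandible and maxilla and 792 and 797 in brain, 1.70-fold higher in brain in WT and 1.81-fold in *FoxO6*-/-. The limma estimate of -0.81 ± 0.15 (SE, log2) had an adjusted p of 0.0531. A dim second probe set, with all signals under 70, went the other way by 0.91 and 1.13, and the mean of both had a log2 difference of 0.10.

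Adamts12 and Adamts7 cleave COMP, a protein of cartilage and tendon. Adamts12 read 1595 and 1402 in mandible and maxilla and 1269 and 1072 in brain, a log2 difference of 0.36 ± 0.15 (SE, limma adjusted p = 0.201). Adamts7 read 129 and 123 against 114 and 113, close to the floor. Adamts10, which binds fibrillin microfibrils, read 300.2 and 279 against 155 and 223, with a difference of 0.32 in WT and 0.95 in *FoxO6*-/-. Adamts6, its close relative, read 143 and 189 against 114 and 142, with the lower *FoxO6*-/- signal in both tissues. All 4 of these genes had both mandible and maxilla arrays above both brain arrays, as did 36.4% of all genes measured, and none was called. Adamts16 read 90.1 and 115.7 against 103.9 and 94.4, with a brain mean of 99.1, under the floor. It was brightest on the same arrays as the cartilage markers. Adamts18 read 178 and 153 against 204.5 and 145. The sign of the tissue difference of Adamts16 and Adamts18 changed with the scaling or with 1 array left out.

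Among the inhibitors, Timp4 ran opposite to the other three. Timp4, known for its high level in heart and brain, had signals of 184.5 and 260.2 in mandible and maxilla and 335 and 464 in brain. Brain was 1.78-fold higher in WT and 1.82-fold in *FoxO6*-/-, and limma gave -0.85 ± 0.15 (SE, log2, adjusted p = 0.0485). Its second probe set read 79.9 and 65.6 against 165 and 191.5. The call did not hold with all 4 arrays when genotype was no term (adjusted p = 0.0868), and that form with 1 array left out gave adjusted p-values of 0.0707 to 0.267. Timp1, a soluble inhibitor of most MMPs, read 1042.5 and 927 in mandible and maxilla against 731 and 577 in brain, a log2 difference of 0.60 ± 0.15 (SE, limma adjusted p = 0.0958). Timp2, which also takes part in the activation of Mmp2 by Mmp14, read 4723 and 5508 against 4621 and 4237. In WT the tissues differed by 0.38 and in *FoxO6*-/- by 0.03. Timp3, the inhibitor that binds to matrix and also blocks ADAMTS enzymes, read 2459.8 and 2129 against 2050.2 and 1755. The limma estimate was 0.27 ± 0.15 (SE, adjusted p = 0.292). Its other probe sets above the floor had mean log2 differences of 0.12 and 0.0016, the latter with overlapping tissues.

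**Figure D3:**
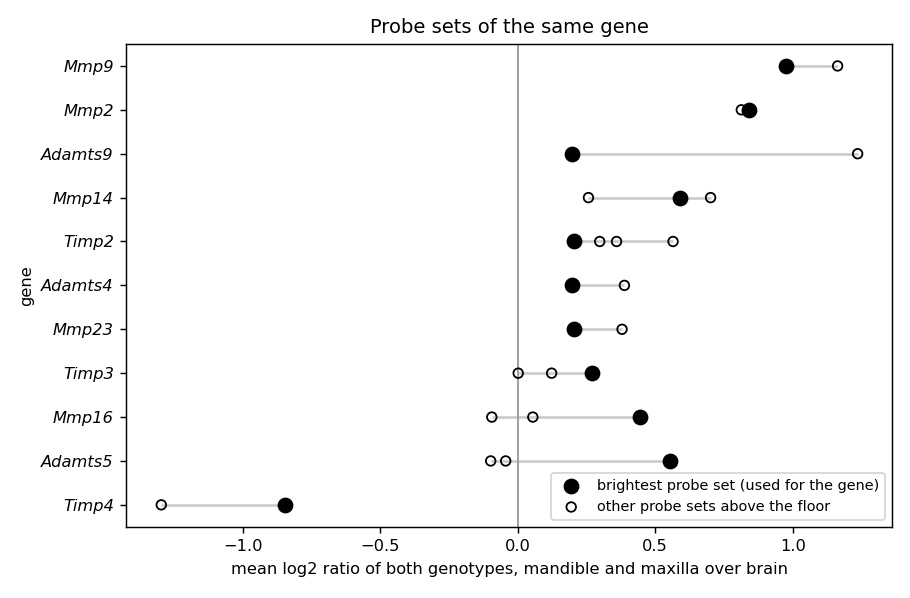
Mean log2 ratio of mandible and maxilla over brain (x axis, mean of both genotypes) for every probe set above the floor of the 11 genes that have several. Filled points are the brightest probe set, which stands for the gene, and open points the others. In 8 genes all points lie above 0, in Timp4 both lie below 0, and in Mmp16 and Adamts5 they lie on both sides.

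Probe sets of the same gene give a check within an array, although they share the RNA. For 11 members several probe sets were above the floor, and in 9 of these all lay on the same side of 0. Timp3 is among the 9 with a probe set at only 0.0016. The share of all genes whose probe sets lie on the same side is not given. Over 5031 genes with such pairs, the log2 difference between the 2 brightest had an SD of 0.57 for mandible and maxilla over brain. The differences of Mmp24 and Mmp9 exceeded this SD, and so did those of Mmp2, Mmp13, Mmp14, Mmp11, Mmp17, Adamts3, Adamts10, Adamts20, Timp1 and Timp4. Adamts8 did so with its signals as deposited and not, at 0.38, with low signals raised to the floor. The other 14 measured members did not exceed it. The share of all genes beyond this SD is not given, so the list says nothing of the members in particular.

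Genes that work with these enzymes were counted in the same limma fit, in 7 lists. ADAMTS-like proteins, which lack the protease domain, had 1 of 6 measured genes called higher in mandible and maxilla, Adamtsl5 with 0.95 ± 0.15 (SE, adjusted p = 0.0396), and a median of 0.54. Proenzyme activators had 2 of 8 called higher there and a median of 0.50. These were St14, the serine protease matriptase of epithelia, with 1.71 ± 0.19, and Plau, the urokinase gene, with 1.40 ± 0.16. Stratified epithelium markers were also higher in mandible and maxilla, 6 of 6 called with a median of 2.49, and their part in St14 and Plau was not tested. Cell surface partners had 1 of 8 called, the syndecan gene Sdc1 with 1.58 ± 0.16, and a median of 0.44.

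In the remaining pathway lists the calls were toward brain or there were none. Inhibitors other than TIMPs had 2 of 6 called higher in brain, the testican genes Spock3 (-1.95 ± 0.21) and Spock2 (-1.80 ± 0.15), and a median of -1.49. Reck, a membrane-anchored inhibitor of MMPs, read 3149 and 3669 in mandible and maxilla against 2544 and 2301 in brain and was not called. Proteoglycans had 2 of 8 called higher in brain, the neural proteoglycans Ncan (-5.65 ± 0.36) and Bcan (-3.76 ± 0.21). The median of 0.02 over this list differed by genotype, with 0.36 on the WT and -1.02 on the *FoxO6*-/- arrays. ADAM metalloproteases, the membrane-anchored relatives, had 1 of 11 called, the neuronal Adam23 with -1.15 ± 0.18 toward brain, and a median of 0.09. Of the fibrillar, basement membrane and elastic matrix genes 0 of 10 were called in either direction, with a median of 0.26.

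**Figure D4:**
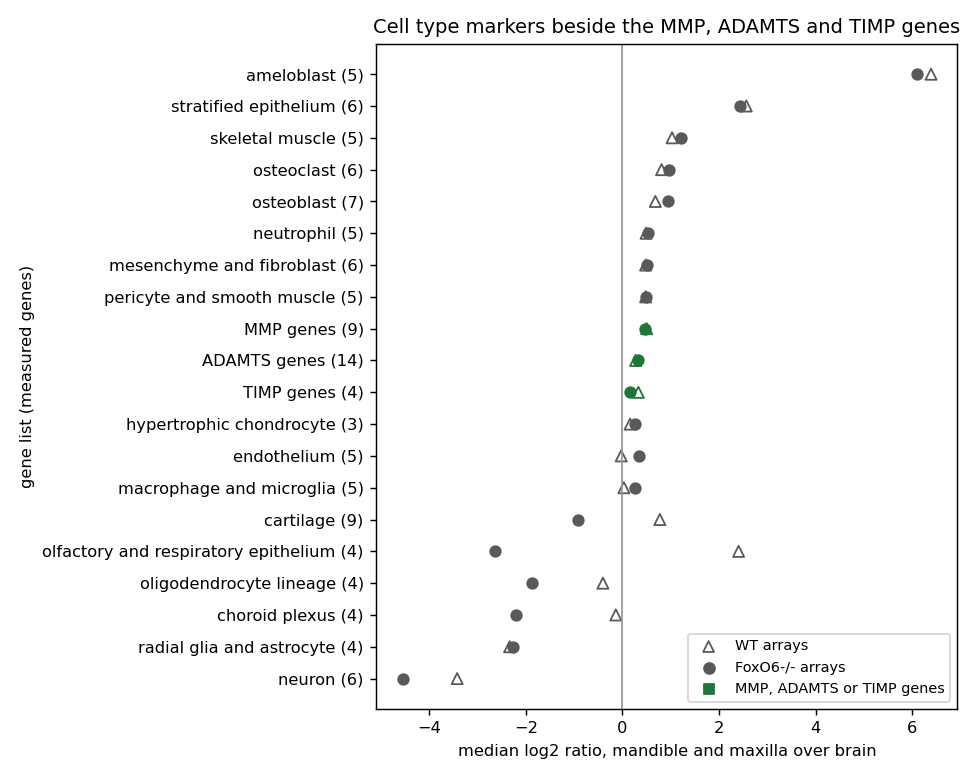
Median log2 ratio of mandible and maxilla over brain (x axis) for the MMP, ADAMTS and TIMP genes (green) and for lists of cell type markers (grey), with the number of measured genes in parentheses. Open triangles are the WT arrays and circles the *FoxO6*-/- arrays. The MMP genes lie at 0.50 and 0.46, below the osteoclast and osteoblast lists, while cartilage and olfactory markers lie on opposite sides of 0 in the 2 genotypes.

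Between genotypes no measured member differed by 2-fold or more in either tissue. In mandible and maxilla 0 of 26 members were at least 2-fold higher in *FoxO6*-/-, against 0.591% of all genes, and 0 were at least 2-fold lower, against 1.69%. In brain the counts were 0 of 25 in both directions, against 1.13% higher and 2.03% lower. These ratios compare 1 array with another and have no test. The median log2 ratio of *FoxO6*-/- over WT was 0.07 over the members and -0.01 over all genes in mandible and maxilla, and 0.03 and 0.05 in brain. The limma genotype term over both tissues called 0 of 27 members and 0% of all genes, and the smallest adjusted p of any gene was 0.902. At an unadjusted p under 0.05 there were 1 of 27 members, Timp4, and 588 of 12569 genes. Centring on the array median raised the ratio of all genes to 0.12 in mandible and maxilla and to 0.20 in brain, and the small ratios below are to be read against that shift.

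Timp4 had the lower signal in *FoxO6*-/- in both tissues, 184.5 against 260.2 in mandible and maxilla and 335 against 464 in brain. The log2 ratio was -0.50 and -0.47, and the limma estimate was -0.48 ± 0.15 (SE, unadjusted p = 0.038, adjusted p = 0.902). Its second probe set gave 0.28 in mandible and maxilla and -0.22 in brain. Mmp13 had the higher signal in *FoxO6*-/- in both tissues, with log2 ratios of 0.33 and 0.65 and a limma estimate of 0.49 ± 0.17 (SE, unadjusted p = 0.0551, adjusted p = 0.902). The osteoclast markers were higher in *FoxO6*-/- for 7 of 7 genes measured in mandible and maxilla, with a median of 0.48, where 48.7% of all genes were above 0. Other lists were higher on that array too, with 5 of 5 ameloblast (median 0.57), 6 of 6 stratified epithelium (0.49), 6 of 6 mesenchyme (0.18) and 5 of 7 osteoblast markers (0.23). Mmp9 read 0.07 by its brighter and 0.48 by its second probe set. The *FoxO6*-/- mandible and maxilla array is the one with the high Actb 3' to 5' ratio, and the part of RNA quality in these ratios was not tested.

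Adamts5 had the lowest ratio in brain, -0.77, against -0.02 in mandible and maxilla, and its other 2 probe sets above the floor gave -0.08 and -0.62 in brain and -0.36 and -0.57 in mandible and maxilla. Adamts6 was lower in *FoxO6*-/- by -0.40 and -0.32, and Adamts18 higher by 0.22 and 0.49. Adamts10 gave 0.11 in mandible and maxilla and -0.52 in brain. Mmp2 gave 0.07 and 0.41, with 0.00 and 0.50 by its second probe set. The SD of the difference between 2 probe sets of a gene was 0.49 for the genotype ratio in mandible and maxilla and 0.43 in brain. In mandible and maxilla only Timp4 and Adamts8 exceeded it among the 26 measured members. In brain Mmp13, Adamts5, Adamts10, Adamts18 and Timp4 did among 25. The share of all genes beyond these SDs is not given, so these genes are no trait of the members in particular. Cartilage markers had median ratios of -1.02 in mandible and maxilla and 0.93 in brain, against 0.07 and 0.03 for the members.

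**Figure D5:**
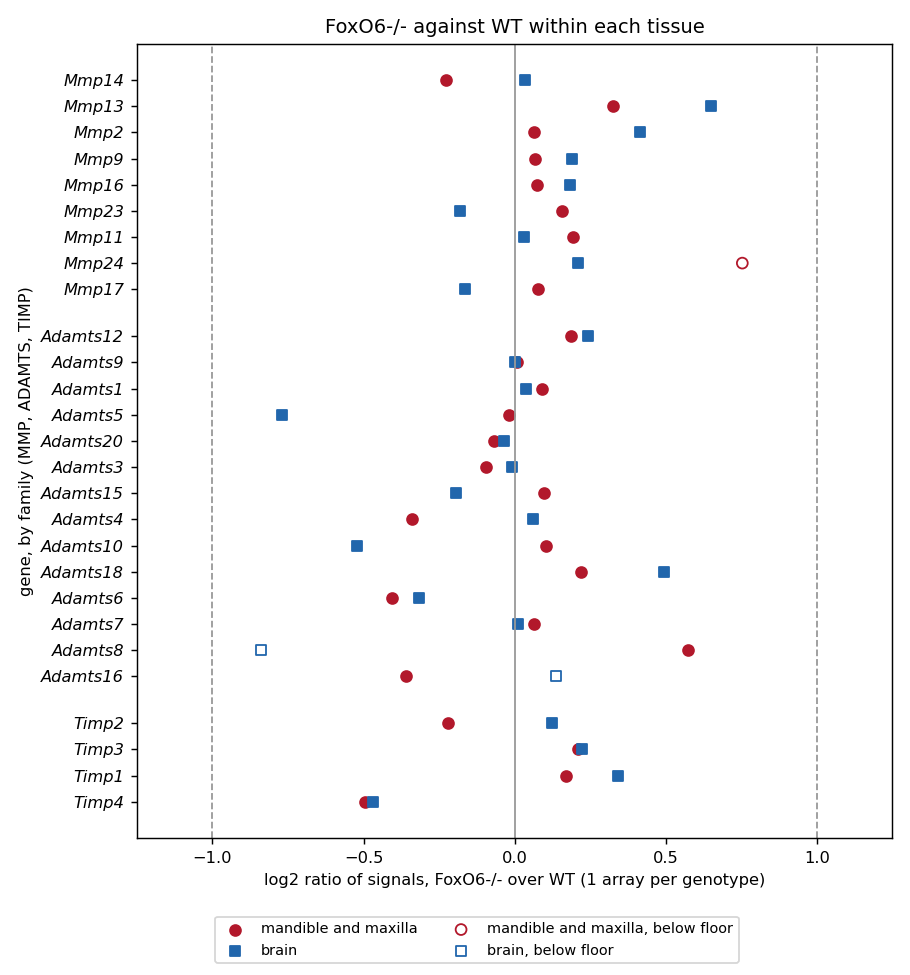
Log2 ratio of *FoxO6*-/- over WT (x axis) for each measured gene, red circles for mandible and maxilla and blue squares for brain, each from 1 array per genotype. Dashed lines mark 2-fold, and open symbols are genes with a mean below the floor in that tissue. All filled points lie between the dashed lines, from -0.50 to 0.58 in mandible and maxilla and from -0.77 to 0.65 in brain.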

How the data were processed

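The deposited intensity of each of 45101 probe sets is a MAS5 signal made by the authors, on a linear scale with a trimmed mean of 500.0 on every array, so no further scaling was applied. Which MAS5 version they used is not given in the sources read. Names came from GEO's platform annotation: 34958 have 1 gene, 932 have several and were left out, and 9160 that are not controls are unnamed here. A gene was represented by its brightest probe set and was compared only where its mean over the arrays concerned reached the floor of 101, the median signal without control probe sets.

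Tissue and genotype were tested together with limma 3.58.1 on log2 signals over 12569 genes, with Benjamini-Hochberg adjustment and a limit of 0.05. Ratios between genotypes within a tissue were read at 2-fold with no test. The fit was also run on simulated arrays with noise of the same size for every gene. That run cannot show how the fit behaves where genes vary unequally. Every member was named, and of other lists the highest, the lowest or those a result turns on. Motifs were searched in promoter windows of the RefSeq table for GRCm38.p6. Members and lists were chosen with earlier results of these data known. Alternatives were quantile normalization, median centring, other floors, other rules for probe sets, a variance trend, fits with 1 term and each array left out, and, added after the values were seen, every probe set above the floor. With 1 array per group the number of arrays limits the precision. Software was Python 3.11.15, pandas 2.3.3, numpy 2.4.6 and R 4.3.3.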

Additional observations from a re-analysis of the deposited data

Results flagged for a closer look

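Adamts8, a proteoglycan-cleaving ADAMTS gene, ran in opposite directions between the genotypes in the 2 tissues. As a log2 ratio, *FoxO6*-/- over WT gave 0.58 in mandible and maxilla and -0.84 in brain, a gap of 1.41. The gap rests on 1 array per group and was not tested, and the brain signals of 50.4 and 90.2 were under the floor of 101.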

How the results depend on the processing

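The limma genotype term called 0 members and 0 of all genes in each of 10 settings, which says nothing of the members in particular. For tissue, the calls changed with the setting. Members called higher in mandible and maxilla numbered 1 as reported and 2 with quantile normalization, 0 with median centring, 0 with no floor, 4 with a floor at the 75th percentile, 4 with signals raised to the floor, 6 with a variance trend and 3 with no genotype term, and 0 to 1 with an array left out. Members called higher in brain numbered 2 as reported and 4 with median centring, 0 with no floor, 1 with the floor at the 75th percentile, 4 with signals raised to the floor, 0 with the mean of a gene's probe sets and 1 with gene-specific probe sets, 3 with a variance trend and 3 with no genotype term, and 1 with any array left out, each time Mmp24. With a gene's probe sets averaged 21 members were tested, and with the floor at the 75th percentile 14. Mmp24 was in neither of these fits, and Timp4 only in the former. The fits with an array left out have no genotype term either, and in them the lone array of a tissue is assumed to vary like the other tissue. With all 4 arrays, leaving out the genotype term ended the call of Timp4 (adjusted p = 0.0868) and added Adamts20, Mmp2, Adamts3 and Mmp17. Over all genes, 814 higher in mandible and maxilla and 1097 higher in brain became 0 and 0 with no floor, 537 and 588 with such means, 1238 and 1495 with signals raised to the floor, and 1340 and 1576 with a variance trend.

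Members with both mandible and maxilla arrays above both brain arrays numbered 20 as reported, 13 with median centring and 13 of 14 with the floor at the 75th percentile, and those with both brain arrays above numbered 4, then 1 with that floor and 2 with such means. The share of all genes with that floor or such means is not given, so these counts say nothing of the members in particular. At 2-fold between genotypes, no floor gave 4 higher and 2 lower members in mandible and maxilla and 3 higher and 1 lower in brain, all below the floor, and averaging all probe sets gave 1 higher in mandible and maxilla, Adamts12. That rests on a dim probe set of Adamts12 with signals of 16.1 and 4 there, under the floor, while its brighter probe set gave a log2 ratio of 0.19. The tissue difference of Adamts16 turned to -0.0773 with quantile normalization and -0.0770 with median centring, and ran from -0.14 to 0.22 with an array left out. That of Adamts18 ran from -0.31 to 0.18 with an array left out. Averaged over all probe sets, Adamts3 turned to 0.10 and Timp3 to -0.00131. Beyond fewer arrays or other genes tested, the causes were not tested. Of 18 other probe sets above the floor, 15 differed from the reported value by less than the SD between probe sets and 3 by more. The genotype term already compares the tissues within genotype. No paired analysis was possible by replicate because each group has 1 array. Signals under the floor of 101 limit what can be read for 9 members.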
